A study of Mus musculus with 16 samples.

Results

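The E2F factors and the retinoblastoma (pocket) proteins were followed in mouse hippocampal neurons that had received lipoproteins of human apoE2, apoE3 or apoE4. They were E2f1, E2f2, E2f3, E2f5, E2f6, E2f7, E2f8, Rb1, Rbl1 and Rbl2, that is 10 of the 48397 gene symbols counted. The family was chosen by values measured in these same libraries, since E2f2 and E2f7 were already known to stand high with apoE4. The levels and fold changes of its members are therefore given as a description, with their errors and without p-values.

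The neurons were primary hippocampal cultures from wild type CD1 mouse pups taken between P0 and P2, and RNA was extracted at 17 days in vitro (DIV). All 4 groups received medium conditioned by immortalized astrocytes and concentrated 10-fold, at 10 and again at 13 DIV. For apoE2, apoE3 and apoE4 neurons the astrocytes came from mice in which the human APOE allele replaces the mouse gene. For control neurons they came from Apoe-/- mice, so the control differed in having no apoE rather than no medium. Every group also received cytosine arabinoside (AraC), which stops dividing cells. Its concentration is 5 mmol/L in the sample labels but 5 μmol/L in the published methods. RNA depleted of ribosomal RNA was sequenced in 4 libraries per group, 16 in all. The published methods describe the sequenced cultures of each group as independent, which the labels do not state.

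E2F factors bind DNA together with a dimerization partner of the DP family and set the transcription of genes for DNA replication and mitosis. E2F1, E2F2 and E2F3 are known as activators, E2F4 and E2F5 as repressors that work with pocket proteins, E2F6 as a repressor of a Polycomb complex, and E2F7 and E2F8 as atypical repressors that bind without a partner and are themselves E2F targets. The pocket proteins pRB (Rb1), p107 (Rbl1) and p130 (Rbl2) hold E2F in check until cyclin-dependent kinases phosphorylate them, and in postmitotic neurons this keeps the cell cycle genes silent.

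Between 14087723 and 34248172 reads per library fell on genes, with a median of 22221832, and 38.4 to 73.7% of a library's reads fell on no single gene. The apoE4 library 2 and the apoE2 library 4 stood apart, with 38.6% and 38.4% of reads on no gene against 51.4% or more in the 14 others. Lars2, whose share of the gene counts was 2.83 to 15% in the others, took 0.359% and 0.69% there. Levels are CPM, that is gene counts relative to the TMM-scaled library size, and fold changes are from edgeR on the counts. Of the 10 members, 9 passed the filter on low counts, as did 17038 genes in all, and E2f8 did not. E2f7 passed only through its apoE4 libraries, because 4 of these reached the 0.45 CPM of the filter against 1 apoE3 library and none of the others. The neuronal identity of the cultures showed in Map2, at 1150 to 3110 CPM over the libraries, and all 8 of 8 neuron markers were detected. The cultures held other cells too, with Gfap, the astrocyte filament gene, at 189 to 3450 CPM.

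The start sites shown are those of 4 members and of Cdc6, a replication gene described further below, in which an E2F motif was found. Of the replication genes only Cdc6, the 1 that edgeR called with apoE4, was searched, so nothing is read from its motif. RefSeq gave windows of 300 bases, from 250 before to 50 after a start site, for 8 of the members (10 windows, build GRCm38.p6). They were searched on both strands for the 4 spellings TTTCCCGC, TTTCGCGC, TTTGCCGC and TTTGGCGC, which exclude each other at any position of a strand. A motif was found in 4 of the 10 windows, 1 each of 4 members, and the second windows of E2f2 and E2f3 held none. Over all 32851 promoter windows 2.26% held one, and 4.29% of the windows with at least 60% GC did. Each line gives 30 bases, 5′ to 3′ on the strand of the gene, with the motif in capitals.
E2f2, chr4:136172294-136172323, plus strand: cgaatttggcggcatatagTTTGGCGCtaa
E2f3, chr13:29986056-29986085, minus strand: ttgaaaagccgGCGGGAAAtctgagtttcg
E2f7, chr10:110745230-110745259, plus strand: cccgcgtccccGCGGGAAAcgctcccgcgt
Rbl1, chr2:157204534-157204563, minus strand: aagaaggcgatTTTCGCGCgctttgtcgcg
Cdc6, chr11:98908002-98908031, plus strand: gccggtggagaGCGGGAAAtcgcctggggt

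The capitals GCGGGAAA in E2f3, E2f7 and Cdc6 are TTTCCCGC read from the opposite strand. Relative to the start site the motif lay at bases 40 to 47 in E2f2, at -11 to -4 in E2f3, at -198 to -191 in E2f7, at -18 to -11 in Rbl1 and at -138 to -131 in Cdc6. These positions are counted from the RefSeq start, which for E2f2 lies before the start of the gene in the annotation given below. For E2f1 the window, 1 of the 6 without a motif, lies inside the annotated gene and is not read as its promoter. A match is a string of letters here and was not tested as a binding site.

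Among the activators, E2f2 stood apart in apoE4 neurons. The gene lies on the plus strand of chr4:136172394-136196057 (mm10), and no exon of another gene overlaps its exons. Its level was 0.272, 0.241, 0.628 and 0.366 CPM in control libraries 1 to 4, from 6, 6, 18 and 7 reads. With apoE2 it was 0.493, 0.382, 0.0765 and 0.330 CPM, and with apoE3 it was 0.989, 0.287, 0.495 and 1.90 CPM. With apoE4 it was 7.58, 2.51, 3.10 and 5.85 CPM, from 112, 88, 56 and 115 reads. All 4 apoE4 libraries were thus higher than each of the 12 others, whereas the control, apoE2 and apoE3 libraries overlapped. Mean levels were 0.377 ± 0.175 CPM in control (SD, n = 4), 0.320 ± 0.176 with apoE2, 0.918 ± 0.719 with apoE3 and 4.76 ± 2.38 with apoE4. The log2 fold change against control was 3.62 ± 0.63 (SE) with apoE4, a 12.3-fold difference, in 4 of 4 pairs of libraries with the same replicate number. It was 1.22 ± 0.62 with apoE3, higher in 3 of 4 pairs, and -0.28 ± 0.64 with apoE2, higher in 2 of 4. Once the fit also took in the replicate number as a block, the value for apoE4 was 3.45 ± 0.44.

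**Figure D1:**
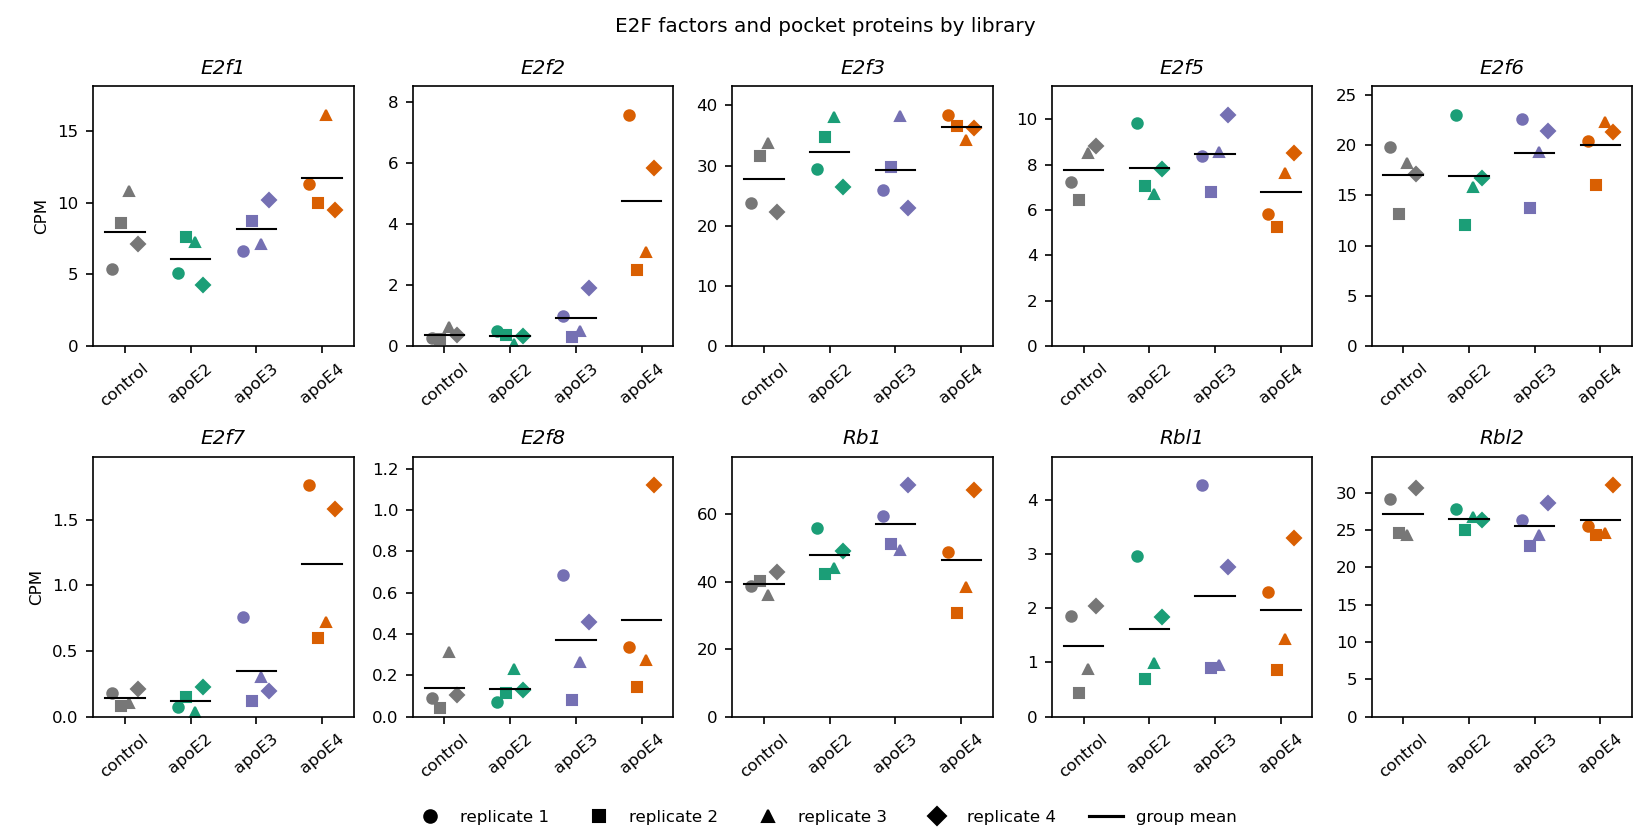
Level of each member in each of the 16 libraries (CPM, a linear axis from 0 for each gene), with groups on the horizontal axis, marker shapes for the replicate number and a bar for the group mean. The 4 apoE4 libraries of E2f2 sit between 2.51 and 7.58 CPM, above all others, while Rbl2 lies between 22.9 and 31.0 CPM in every group.

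E2f1, the founding activator, which can also drive apoptosis genes, was moderately higher with apoE4. The gene lies on the minus strand of chr2:154559407-154569892 (mm10). It measured 5.36, 8.56, 10.8 and 7.12 CPM in control, 5.07, 7.63, 7.23 and 4.29 CPM with apoE2, and 6.62, 8.72, 7.12 and 10.2 CPM with apoE3. With apoE4 it measured 11.3, 9.94, 16.1 and 9.50 CPM. The apoE4 libraries lay above all apoE2 libraries but overlapped with control and with apoE3. Against control its log2 fold change was 0.55 ± 0.26 with apoE4, higher in 4 of 4 pairs, 0.03 ± 0.26 with apoE3 and -0.40 ± 0.26 with apoE2, where it was higher in 0 of 4 pairs. Between apoE4 and apoE2 it was 0.95 ± 0.26.

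E2f3 was the most abundant of the activators, and differed little between groups. Its level was 23.8, 31.6, 33.7 and 22.2 CPM in control and 38.4, 36.6, 34.2 and 36.3 CPM with apoE4, so the groups just failed to overlap, with 34.2 CPM the lowest apoE4 value and 33.7 CPM the highest control value. The apoE2 libraries, at 26.5 to 38.1 CPM, and the apoE3 libraries, at 23.0 to 38.2 CPM, overlapped with both. Against control the log2 fold change of E2f3 was 0.38 ± 0.17 with apoE4, 0.21 ± 0.17 with apoE2 and 0.07 ± 0.17 with apoE3. Summed over the activators, the level was 36.2 ± 7.91 CPM in control, 38.5 ± 6.65 with apoE2, 38.3 ± 5.49 with apoE3 and 52.8 ± 3.47 with apoE4 (SD, n = 4). The apoE4 sums, 49.0 to 57.3 CPM, lay above those of every other library, which reached 45.9 CPM at most.

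The repressors E2f5 and E2f6 showed no such separation. E2f5 ranged from 6.43 to 8.84 CPM in control, 6.70 to 9.85 CPM with apoE2, 6.80 to 10.2 CPM with apoE3 and 5.27 to 8.54 CPM with apoE4. Its log2 fold change against control was -0.19 ± 0.19 with apoE4, lower in all 4 pairs (-0.31 to -0.05), 0.13 ± 0.19 with apoE3 and 0.02 ± 0.19 with apoE2. E2f6 ranged from 13.1 to 19.8 CPM in control, 12.1 to 23.0 CPM with apoE2, 13.7 to 22.6 CPM with apoE3 and 16 to 22.3 CPM with apoE4. Its log2 fold change was 0.23 ± 0.20 with apoE4, 0.18 ± 0.20 with apoE3 and -0.01 ± 0.20 with apoE2. In the pairs E2f6 was higher in 4 of 4 with apoE4 (0.05 to 0.32) and in 4 of 4 with apoE3 (0.07 to 0.33), and with the replicate block the apoE4 value was 0.25 ± 0.1. For both genes the groups overlapped in every comparison.

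The atypical factor E2f7 was near the detection limit outside apoE4 neurons. The gene lies on the plus strand of chr10:110745439-110787384 (mm10), and an antisense transcript covers 0.955% of its exon bases. It had 4, 2, 3 and 4 reads in control libraries 1 to 4, 1, 4, 1 and 9 reads with apoE2, and 10, 3, 8 and 3 reads with apoE3. With apoE4 it had 26, 21, 13 and 31 reads, or 1.76, 0.598, 0.719 and 1.58 CPM. The apoE4 libraries exceeded all control and apoE2 libraries, but apoE3 library 1, at 0.761 CPM, lay above apoE4 libraries 2 and 3. Means were 0.144 ± 0.0613 CPM in control, 0.122 ± 0.0856 with apoE2, 0.346 ± 0.286 with apoE3 and 1.16 ± 0.590 with apoE4 (SD, n = 4). The log2 fold change against control was 2.98 ± 0.62 with apoE4, a 7.91-fold difference seen in 4 of 4 pairs, 1.20 ± 0.65 with apoE3 and -0.09 ± 0.70 with apoE2.

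E2f8, the other atypical factor, was counted too rarely for the fit. It had 2, 1, 9 and 2 reads in control, 1, 3, 6 and 5 with apoE2, 9, 2, 7 and 7 with apoE3 and 5, 5, 5 and 22 with apoE4. The groups overlapped throughout, and apoE4 library 4 held 22 of the 37 reads of its group. Fitted without the low-count filter, it had log2 fold changes against control of 1.64 ± 0.75 with apoE4, 1.25 ± 0.77 with apoE3 and -0.03 ± 0.79 with apoE2. In that fit, and in the filtered fits without apoE2 replicate 1, apoE4 replicate 1 or apoE4 replicate 3, E2f8 also met the study's criterion given below for apoE4 against control. Exons of another gene on the opposite strand cover 11.2% of its exon bases, and whether counting used the strand is not given in the sources used here.

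Of the pocket proteins, Rb1, on the minus strand of chr14:73183673-73325822 (mm10), was higher with apoE3. It measured 38.8, 40.1, 36.1 and 43.0 CPM in control and 59.5, 51.1, 49.4 and 68.6 CPM with apoE3, so that no apoE3 library fell in the control range. With apoE2 it measured 56.0, 42.4, 44.2 and 49.2 CPM, and with apoE4 it measured 48.9, 30.9, 38.4 and 67.3 CPM. The apoE4 libraries spread the most, with an SD of 15.8 CPM against 2.84 CPM in control, and library 2, which stood apart in its reads off genes, fell below every control library. Against control Rb1 had a log2 fold change of 0.53 ± 0.19 with apoE3 in 4 of 4 pairs, 0.28 ± 0.19 with apoE2 in 4 of 4 and 0.23 ± 0.19 with apoE4 in 3 of 4. Without apoE4 library 2 the last value was 0.38 ± 0.17, and without apoE2 library 4 the apoE2 value was 0.26 ± 0.2. What sets these libraries apart was not tested. Exons of Rcbtb2 and Lpar6 on the opposite strand cover 8.11% and 6.78% of the Rb1 exon bases, and their reads cannot be told apart if the counting ignored the strand.

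Rbl1, which encodes the E2F-regulated p107, was low and followed the replicate number more than the group. It was at 1.86, 0.442, 0.872 and 2.04 CPM in control, 2.96, 0.687, 0.995 and 1.83 CPM with apoE2, 4.26, 0.901, 0.951 and 2.75 CPM with apoE3 and 2.30, 0.854, 1.44 and 3.3 CPM with apoE4. In every group replicates 1 and 4 were higher than replicates 2 and 3. The log2 fold change against control was 0.75 ± 0.64 with apoE3, 0.60 ± 0.64 with apoE4 and 0.30 ± 0.64 with apoE2, and with the replicate block the SE of these values was 0.25. Rbl2, whose p130 is known as the pocket protein of quiescent cells, was the steadiest member, at 27.2 ± 3.16, 26.5 ± 1.17, 25.5 ± 2.47 and 26.4 ± 3.10 CPM in control, apoE2, apoE3 and apoE4 neurons. Its log2 fold changes against control lay between -0.09 and -0.04, each with an SE of 0.11. Opposite-strand exons of Aktip and Gm45464 cover 9.17% and 11.8% of its exon bases.

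**Figure D2:**
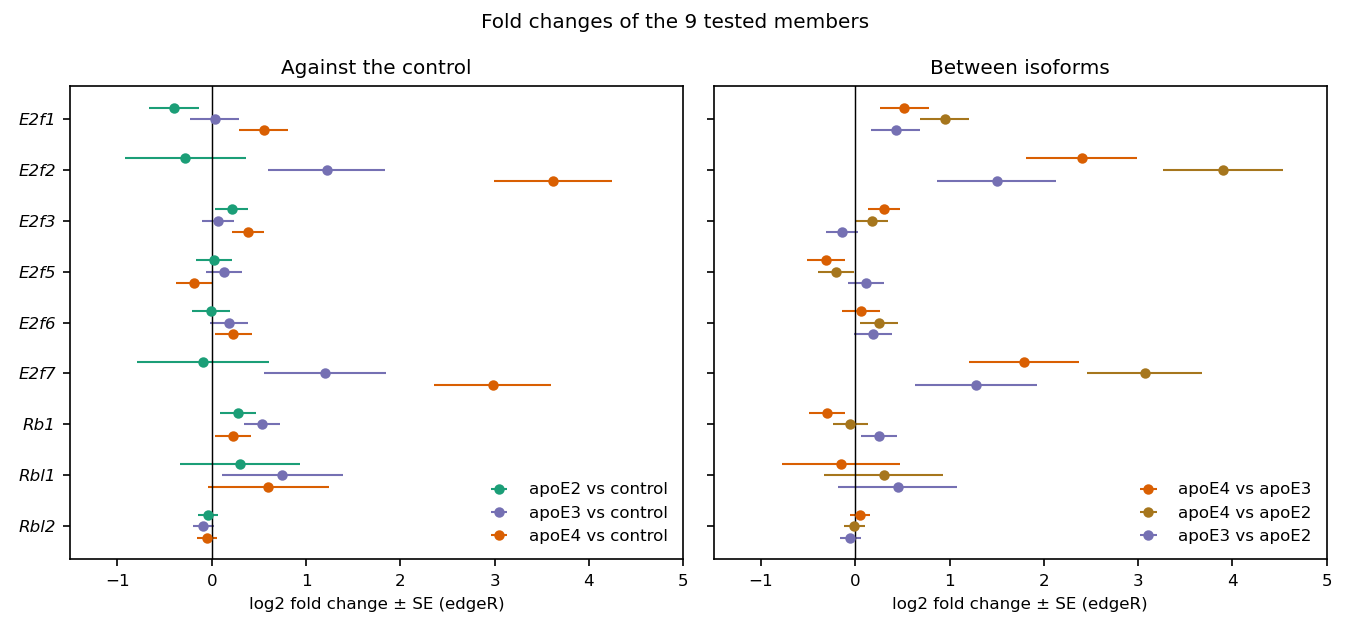
Log2 fold changes of the 9 tested members (points) with their standard errors (bars), against the control on the left and between isoforms on the right. E2f2 and E2f7 with apoE4 lie at 3.62 and 2.98, and Rbl2 lies within 0.09 of 0 in every comparison.

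Counts of members past the thresholds are set beside the share of all 17038 tested genes, and since members were chosen by these values nothing is read from that share. E2f7 was tested only because its apoE4 libraries reached the filter, so nothing is read from its counts either, here or between isoforms. At an adjusted p under 0.05 (edgeR, Benjamini-Hochberg over all genes), 1 of the 9 tested members, E2f2, was called between apoE4 and control, where 0.194% of all genes were. The call was lost with a stricter filter of 1 CPM in 8 libraries, which removes the gene, with the test of the study's methods and with only the 2 groups compared. DESeq2 called 2, E2f2 and E2f7, beside 0.534% of the 17026 genes to which it gave an adjusted p. An unadjusted p under 0.05 was found for 4 members, E2f1, E2f2, E2f3 and E2f7, beside 3.3% of all genes. With the replicate block the called members were 2, E2f2 and E2f7, beside 3.3% of all genes. Without control library 1, 2, 3 or 4, apoE3 library 1 or apoE4 library 1 or 4, the fit without the block called 0 members, and the log2 fold change of E2f2 was 3.31 to 4 over all 16 such fits. Without apoE4 library 2, which stood apart, it was 3.83 ± 0.64 for E2f2 and 3.21 ± 0.63 for E2f7, and both were called, and without apoE2 library 4 it was 3.6 ± 0.64 and 2.96 ± 0.6, with E2f2 called. By the study's criterion, a 2-fold or larger difference at an unadjusted p under 0.05, the members were again E2f2 and E2f7, beside 1.15%. The libraries of 3 members, E2f2, E2f3 and E2f7, lay above all control libraries, as did those of 1.34% of all genes. The median log2 fold change of the 9 tested members was 0.38 with apoE4 beside 0.00 over all tested genes.

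With apoE3, 0 members were called against control by edgeR, beside 0.00587% of all genes, and 1 had an unadjusted p under 0.05, beside 6.43%. DESeq2 also called 0, beside 0.352%. With the replicate block 1 member, Rb1, was called, beside 11.7% of all genes. The study's criterion took 0 members and 1.96% of all genes. Rb1 was the member whose apoE3 libraries lay above all control libraries, which 1.4% of all genes did. With apoE2, edgeR called 0 members, beside 0% of all genes, and DESeq2 called 0, beside 0.17%. An unadjusted p under 0.05 was found for 0 members, beside 2.79% of all genes. With the block 0 members were called, beside 1.73%, and 0 met the study's criterion, beside 0.722%.

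Between isoforms, E2f2 and E2f7 had the largest differences of the 9 tested members. The log2 fold change of E2f2 was 2.40 ± 0.59 between apoE4 and apoE3, 3.90 ± 0.64 between apoE4 and apoE2 and 1.5 ± 0.63 between apoE3 and apoE2. For E2f7 these were 1.79 ± 0.58, 3.07 ± 0.61 and 1.28 ± 0.65. E2f2 was higher with apoE4 than with apoE3 in 4 of 4 pairs and so was E2f7. These comparisons share libraries with each other and with those against control.

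Between apoE4 and apoE3 edgeR called 0 members, beside 0.147% of all genes, and DESeq2 called 1, E2f2, beside 0.405%. At an unadjusted p under 0.05 there were 2 members, beside 4.7% of all genes. With the block edgeR called 2 members, E2f2 and E2f7, beside 1.77%. The libraries of 1 member, E2f2, did not overlap, as for 1.34% of all genes with apoE4 higher. Between apoE4 and apoE2 edgeR called 1 member, E2f2, beside 0.252%, DESeq2 called 2, E2f2 and E2f7, beside 0.957%, and with the block 3 members, E2f1, E2f2 and E2f7, beside 4.44%. The libraries of E2f1, E2f2 and E2f7 did not overlap, as for 1.9% of all genes with apoE4 higher. Between apoE3 and apoE2 both edgeR and DESeq2 called 0 members, beside 0% of all genes in edgeR and 0.0529% in DESeq2. At an unadjusted p under 0.05 there was 1, beside 2.28%, and with the block 0 members were called, beside 1.31%.

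Divided by exon length, the levels can be compared between genes. In control neurons they ran from 6.57 ± 0.477 CPM per kb for Rb1 through 5.13 ± 1.05 for E2f3, 4.35 ± 0.634 for E2f5, 3.6 ± 0.420 for Rbl2, 3.01 ± 0.505 for E2f6 and 2.52 ± 0.730 for E2f1. A wide gap followed, with 0.218 ± 0.129 for Rbl1, 0.0772 ± 0.0360 for E2f2, 0.0253 ± 0.0222 for E2f8 and 0.0160 ± 0.00679 for E2f7. All neighbours in this order overlapped in their library ranges except E2f1 and Rbl1, between which the gap lay. In apoE4 neurons E2f2 stood at 0.975 ± 0.487 CPM per kb, next to Rbl1 at 0.329 ± 0.178, whose library range it overlapped. There E2f1 was at 3.71 ± 0.959 and E2f3 at 6.70 ± 0.317. E2f2 in apoE4 neurons thus had a lower level per kb than E2f1, E2f3, E2f5 and E2f6 there.

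The members differed in what they varied with. Of the variance of log2 CPM over the 16 libraries, 80.6% lay between groups for E2f2, 74.9% for E2f7 and 53.3% for E2f1. The family was chosen by the apoE4 levels of E2f2 and E2f7, so their large shares follow from the choice. Neither the share over all genes nor the one expected without a difference was computed. For Rbl1 83.0% lay between replicate numbers and 9.71% between groups, and for E2f6 71.6% and 16%, for Rbl2 68.9% and 6.81%. Rb1 was divided evenly, with 37.1% between groups and 38.0% between numbers. E2f3 had 34.5% and 41.4% and E2f5 21.6% and 44.1%.

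**Figure D3:**
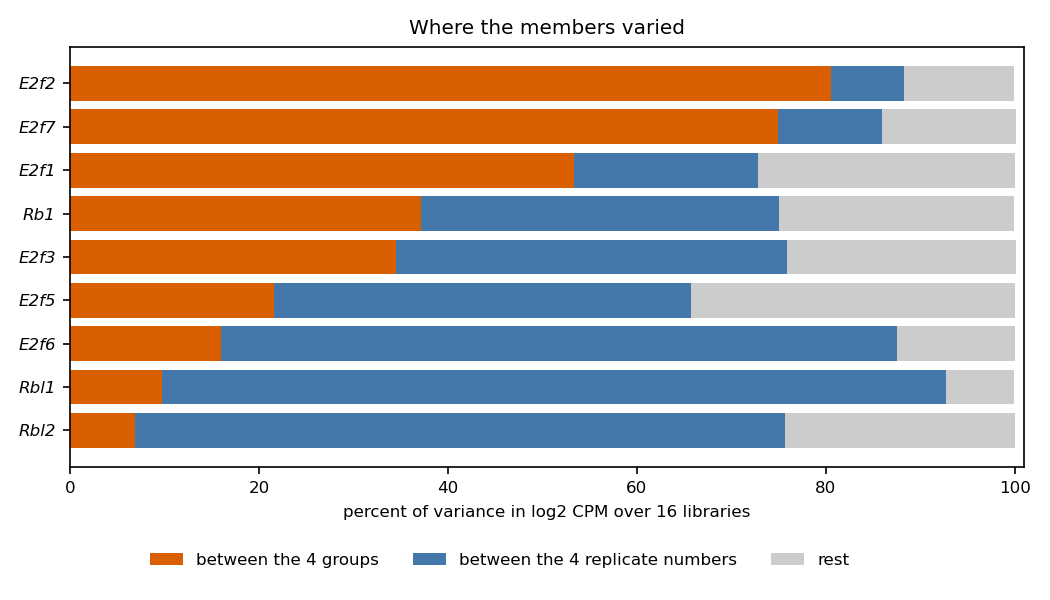
Share of each tested member's variance in log2 CPM over the 16 libraries (percent, stacked bars) that lay between the 4 groups, between the 4 replicate numbers and in the rest. E2f2 and E2f7 at the top, by whose apoE4 level the family was chosen, lay mostly between groups, at 80.6% and 74.9%. Rbl1 lay mostly between replicate numbers, at 83.0%.

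Summed astrocyte and neural progenitor markers varied with the replicate number. Their group means were higher with each isoform than in control, with overlapping ranges. The summed level of 7 astrocyte markers was 518 to 2510 CPM in control, 733 to 2560 with apoE2, 800 to 5970 with apoE3 and 701 to 4670 with apoE4. All 7 had a positive log2 fold change against control with each isoform, of median 0.27, 0.84 and 0.75. EdgeR called 0 of them, and with the replicate block it called 0, 7 and 3, where the block called 1.73%, 11.7% and 3.3% of all genes. The sums of 6 neural progenitor markers ranged over 198 to 1310, 276 to 1400, 345 to 3640 and 274 to 2840 CPM in the same order of groups. Replicate 2 had the lowest astrocyte sum of its group in all 4 groups. Neurons and other cells share these RNA pools, so that more cells of a type and more RNA per cell cannot be told apart.

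Set beside the members, replicate 2 had 518 CPM of astrocyte markers in control and 701 in apoE4 neurons, and its E2f2 level was 0.241 and 2.51 CPM. With apoE3 the astrocyte sum of replicate 4 was 5970 CPM, above the 4670 CPM of apoE4 replicate 4, while E2f2 was 1.90 CPM with apoE3 and 5.85 CPM with apoE4. Averaged over the groups, E2f2 and E2f7 were lowest in replicate 2, as were the astrocyte sums. The mean log2 CPM of replicates 1 to 4 was 0.20, -0.69, -0.55 and 0.29 for E2f2 and -0.98, -1.86, -1.76 and -1.13 for E2f7. Within single groups this order did not always hold, since E2f2 was highest in replicate 3 in control, at 0.628 CPM, and lowest in replicate 3 with apoE2, at 0.0765 CPM. The means of E2f1, at 2.77, 3.13, 3.3 and 2.90, and of E2f3, at 4.86, 5.05, 5.17 and 4.73, were lowest in replicates 1 and 4. Rb1, which was higher with apoE3, and Rbl1, which was higher in replicates 1 and 4, also had their lowest mean in replicate 2. So did E2f5, E2f6 and Rbl2, so that of the tested members only E2f1 and E2f3 did not. The part of the other cells in these differences was not tested. The 8 neuron markers summed to 4030 to 6820 CPM in control, 4410 to 7270 with apoE2, 2880 to 6610 with apoE3 and 3330 to 6690 with apoE4. Microglia markers (7) summed to 6.94 to 40.6 CPM over all libraries, oligodendrocyte lineage markers (7) to 105 to 839 and vascular, mural and fibroblast markers (7) to 13.2 to 294, and edgeR called 0 of them and of the neuron and progenitor markers against control. At an unadjusted p under 0.05 stood 1 neuron and 1 progenitor marker with apoE3 and 0 others. With the replicate block edgeR called progenitor markers (0, 3 and 2 with apoE2, apoE3 and apoE4), oligodendrocyte lineage markers (0, 3 and 1) and vascular, mural and fibroblast markers (0, 1 and 1), all higher, and with apoE3 1 neuron marker higher and 2 lower. Of all marker genes, Cldn5 of endothelial cells was at 0 in 1 library and the rest were detected in every library.

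**Figure D4:**
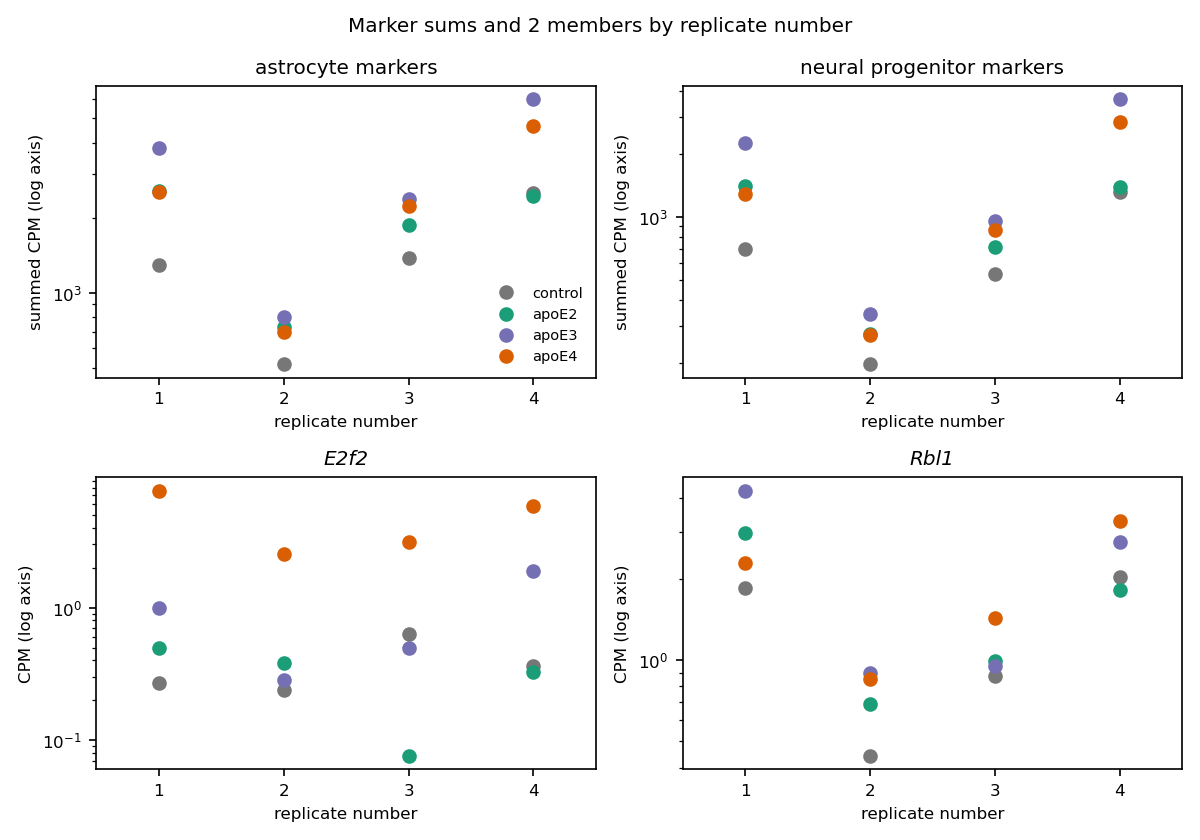
Summed CPM of the astrocyte and the neural progenitor markers (upper row) and CPM of E2f2 and Rbl1 (lower row) against the replicate number, on log axes, with a point per library coloured by group. Replicate 2 is lowest in both marker sums and in Rbl1 in all 4 groups. With apoE2 and apoE4 the other replicates follow the same order in both sums and in Rbl1. In control only the progenitor sum has the order of Rbl1, and with apoE3 neither sum has it. The apoE4 points of E2f2 lie above the others at every number.

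The partners and regulators of the family were examined by lists. The dimerization partner Tfdp1 and the repressor E2f4 differed little, with log2 fold changes against control of 0.00 ± 0.07 and -0.10 ± 0.12 with apoE4. Tfdp2 was at 34.4, 33.0, 34.2 and 27.9 CPM in control and 45.6, 34.3, 35.9 and 40.9 CPM with apoE4, or 0.27 ± 0.14 on the log2 scale (edgeR adjusted p = 1). Between apoE4 and apoE2 the Tfdp2 libraries did not overlap, at 0.44 ± 0.14 (edgeR adjusted p = 0.475, and 0.046 with the block). Of the 9 G1 cyclins and kinases that phosphorylate pocket proteins, edgeR called 0 with any isoform and 0, 0 and 1 had an unadjusted p under 0.05 with apoE2, apoE3 and apoE4, beside 2.79%, 6.43% and 3.3% of all tested genes, against which the counts of the later lists are to be read. The medians were 0.01, 0.32 and 0.30 on the log2 scale. With the replicate block edgeR called 0, 2 and 1 of these genes, beside 1.73%, 11.7% and 3.3% of all genes.

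The 1 with apoE4 was Cdk6, the cyclin D kinase, which together with Uhrf1, Cenpf and Rrm1 is named after its values were seen. Cdk6 was at 5.00, 2.57, 3.17 and 6.44 CPM in control, 8.37, 2.5, 6.01 and 8.52 CPM with apoE3 and 24.5, 8.37, 11.1 and 21.0 CPM with apoE4. The apoE4 libraries lay above all control libraries, at 1.92 ± 0.48 on the log2 scale (edgeR adjusted p = 0.232, and 8.9e-06 with the replicate block). Ccnd1, or cyclin D1, had log2 fold changes of 1.14 ± 0.54 with apoE3 (edgeR adjusted p = 0.77, and 0.00406 with the block) and 0.42 ± 0.53 with apoE4. Ccnd2 and Ccna2, the G1 and S phase cyclins, had 0.30 ± 0.16 and 0.85 ± 0.48 with apoE4.

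Of 7 CDK inhibitors, which keep pocket proteins active, 6 were tested and edgeR called 0, with 0 at an unadjusted p under 0.05 with any isoform and medians of 0.22, 0.78 and 0.50 with apoE2, apoE3 and apoE4. With apoE3, where the block called 11.7% of all genes, it called 2, Cdkn1a (p21) at 0.65 and Cdkn2b (p15) at 1.12 on the log2 scale. Cdkn2a had 0.72 ± 0.55 with apoE3. Of 10 genes of the E2F6 complex, edgeR called 0 with any isoform, and 0, 1 and 1 had an unadjusted p under 0.05. Pcgf6, its Polycomb subunit, had -0.49 ± 0.14 with apoE3, with all apoE3 libraries below control (edgeR adjusted p = 0.56, and 0.0192 with the block), and -0.34 ± 0.14 with apoE4. Rybp and Mga had -0.22 ± 0.14 and 0.04 ± 0.12 with apoE4. Of 7 corepressors that pocket proteins bring to promoters, edgeR called 0 and 0 had an unadjusted p under 0.05. Hdac1, Hdac2 and Sin3b had 0.25 ± 0.17, -0.21 ± 0.12 and -0.12 ± 0.07 with apoE4.

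The MuvB complex joins pocket proteins in quiescence and Mybl2 and Foxm1 in dividing cells. Of its 7 genes edgeR called 0 with any isoform, and 0, 0 and 2 had an unadjusted p under 0.05. The 2 with apoE4 were Mybl2, at 1.95 ± 0.65 (edgeR adjusted p = 0.798, and 0.0324 with the block), and Foxm1, at 1.38 ± 0.44 (edgeR adjusted p = 0.712, and 0.00886 with the block). Foxm1 measured 1.09, 0.965, 0.662 and 2.30 CPM in control and 4.06, 1.65, 2.16 and 5.13 CPM with apoE4. Both were higher in 4 of 4 pairs, and their groups overlapped. The core subunit Lin37 had -0.18 ± 0.15.

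Of 24 G1/S genes, the replication targets of E2F, edgeR called 1 with apoE4 and 0 with apoE2 or apoE3. This was Cdc6, which loads the replicative helicase. It was at 0.409, 0.121, 0.279 and 0.471 CPM in control, 0.493, 0.458, 0.689 and 0.356 CPM with apoE2, 0.380, 0.205, 0.228 and 0.590 CPM with apoE3 and 2.71, 1.14, 1.44 and 1.98 CPM with apoE4. As for E2f2, the 4 apoE4 libraries lay above the 12 others. The log2 fold change against control was 2.5 ± 0.44 (edgeR adjusted p = 0.0349), and it was 2.40 ± 0.45 between apoE4 and apoE3 (edgeR adjusted p = 0.0546). Cdc6 was no longer called in 9 of the 16 fits made after dropping a library. The remaining 23 did not pass with apoE4, and 1 of the 24 had an unadjusted p under 0.05, 18 a positive and 6 a negative fold change, with a median of 0.18 on the log2 scale. With apoE2 and apoE3, 0 had an unadjusted p under 0.05 and the medians were 0.15 and 0.11. Cdt1, Gins1 and Dnmt1 had -0.27 ± 0.33, 0.38 ± 0.31 and -0.05 ± 0.09 with apoE4. The block called 2 of the 24 with apoE4, Uhrf1 beside Cdc6, where it called 3.3% of all genes, and 1 with apoE3, Rrm1, where it called 11.7%.

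Of 20 G2/M genes, edgeR called 0 with any isoform, and 1, 2 and 3 had an unadjusted p under 0.05 with apoE2, apoE3 and apoE4, beside 2.79%, 6.43% and 3.3% of all genes. The medians were 0.34, 0.54 and 0.68 on the log2 scale, with 17, 18 and 18 positive. Top2a, a topoisomerase of mitotic chromosomes, was ordered otherwise than E2f2, with apoE3 the highest. It was at 2.18, 2.45, 4.57 and 7.43 CPM in control, 8.87, 15.3, 13.1 and 21.4 CPM with apoE2, 26.5, 35, 15.8 and 16.5 CPM with apoE3 and 6.23, 5.78, 4.15 and 10.4 CPM with apoE4. Its log2 fold change was 2.5 ± 0.43 with apoE3 (edgeR adjusted p = 0.202, and 0.000559 with the block), 1.83 ± 0.42 with apoE2 (0.651 and 0.014) and 0.68 ± 0.42 with apoE4 (1 and 0.359). Bub1b, of the spindle checkpoint, had 2.02 ± 0.61 with apoE4 (edgeR adjusted p = 0.58, and 0.015 with the block), Cenpf, of the kinetochore, 1.42 ± 0.31 (0.118 and 0.00353) and Ccnb1, cyclin B1, 0.80 ± 0.41.

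**Figure D5:**
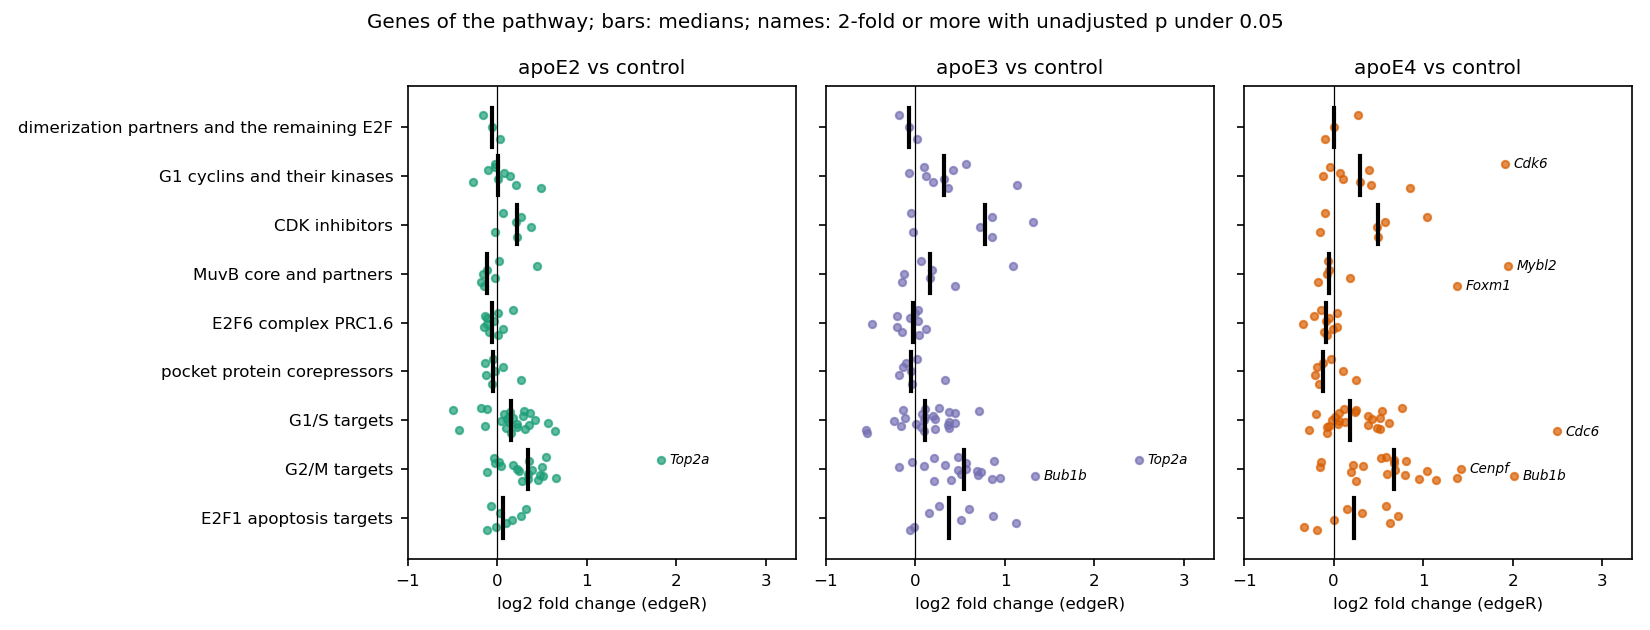
Log2 fold change against control (edgeR) of each tested gene of 9 lists of the pathway, with a panel per isoform, points for genes and bars for list medians. Named points had a 2-fold or larger difference at an unadjusted p under 0.05, among them Cdc6 at 2.5 with apoE4 and Top2a at 2.5 with apoE3.

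Of 8 apoptosis genes that E2F1 is known to drive, edgeR called 0 and 0 had an unadjusted p under 0.05 with any isoform. With the replicate block it called 0, 2 and 0 with apoE2, apoE3 and apoE4, beside 1.73%, 11.7% and 3.3% of all genes. The medians were 0.06, 0.38 and 0.23 with apoE2, apoE3 and apoE4. Bcl2l11, which encodes the BH3-only protein Bim, had 1.12 ± 0.57 on the log2 scale with apoE3 (edgeR adjusted p = 0.786, and 0.00519 with the block, which called 11.7% of all genes). Casp9, of the apoptosome, had 0.32 ± 0.21 with apoE4.

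E2f2 and E2f7 had a Pearson correlation of log2 CPM of 0.886 over the 16 libraries and of 0.498 once group means were removed. With group means removed, other pairs had higher values, such as Rbl1 and Rbl2 (0.812), E2f6 and Rbl1 (0.811) and Rb1 and Rbl2 (0.761). The libraries share the group difference by which the family was chosen and the replicate numbers, and the values are a description. Over all tested genes, those most like E2f2 were RP23-235I2.1 (0.951), Eif4ebp2 (0.940), Btbd7 (0.926), Gxylt1 (0.913) and Igf2bp1 (0.911). Those most like E2f7 were Gm340 (0.913), Igf2bp1 (0.910), Cbx5 (0.893), Eif4ebp2 (0.889) and E2f2 (0.886), so that Igf2bp1 and Eif4ebp2 stood in both sets. Those most like Rb1 were Nxt2 and Cd164 (both 0.936), Sh3glb1 (0.923), Ugdh (0.914) and Arf4 (0.911), none of them in the other sets.

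In gene structure E2f2 and E2f3 had long 3′UTRs, of 3023 and 3331 bases in the longest transcript, longer than in 81.7% and 85.1% of the 14028 tested genes with a 3′UTR length, whose median was 1385 bases. E2f7 followed with 2549 bases (75.2%) and E2f6 with 2296 (70.7%). The pocket protein genes Rb1, Rbl1 and Rbl2 had 1712, 1616 and 1401 bases, and E2f1, E2f8 and E2f5 had 1284, 621 and 595. Beside these lengths, the log2 fold changes with apoE4 were 0.38 for E2f3, 3.62 for E2f2, 2.98 for E2f7 and 0.23 for E2f6. Those of the shorter 3′UTRs were 0.23 for Rb1, 0.60 for Rbl1, -0.05 for Rbl2, 0.55 for E2f1 and -0.19 for E2f5. E2f8 had 1.64 in the fit without the filter. A relation with length was not tested.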

How the data were processed

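Reads were aligned by the authors (STAR, genome mm10) and counted per gene (HTSeq), and they deposited these raw counts for 48397 symbols and 16 libraries. The annotation and the strand setting are not given in the sources used here. Totals of reads on no gene, 38.4 to 73.7% of a library, were left out. Counts were fitted with edgeR 4.0.16 in R 4.3.3 (TMM scaling, filterByExpr at its defaults of 10 for the count, 15 for the total and 0.7 for the proportion, quasi-likelihood test, 1 coefficient per group over all libraries). P-values were adjusted by Benjamini-Hochberg over 17038 genes, and log2 CPM used a prior count of 2. The filter kept genes that reach 0.45 CPM in enough libraries. Fits were also run on simulated counts that held no replicate effect, unlike these libraries, so nothing about the calls here is read from them.

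Members and lists were chosen with earlier results of these data known. Named genes are the members, E2f4 and the Tfdp genes, from each list the called genes and the 3 with the smallest mean p, and the 5 genes most correlated with E2f2, E2f7 and Rb1. Outside this rule, Cdk6, Uhrf1, Cenpf and Rrm1, and Lars2, Map2 and Cldn5 as facts of the libraries, were named after their values were seen. Some of the list genes enter tallies only or are not reported here. Libraries with the same replicate number deviated together, with correlations of deviations from group means of 0.362 to 0.552, 0.766 to 0.831, 0.620 to 0.671 and 0.681 to 0.790 for numbers 1 to 4, against -0.830 to 0.569 between numbers. The labels do not say why. The common dispersion fell from 0.132 to 0.0178 with the number as a block. The fit without it is reported, since the methods name none.

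Alternatives were DESeq2 size factors, no filter, DESeq2 1.42.0, the test of the study's methods, a minimum of 1 CPM in 8 libraries, only the groups compared, the block, and each library left out. Gene structure came from GENCODE on mm10. Proteins, cell counts and microscopy were not analysed here.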

Additional observations from a re-analysis of the deposited data

Results flagged for a closer look

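Within groups of 4 libraries, Dixon's ratio was computed for each of the 10 members in each of the 4 groups, 40 tests, of which chance passes about 1 in 20. It passed its critical value in 1. Rbl2 was at 31.0 CPM in apoE4 replicate 4 and at 24.4 to 25.5 CPM in the other apoE4 libraries, a ratio of 0.832. Replicate 4 also had the highest Rbl2 level in control, at 30.6 CPM, and with apoE3, at 28.6 CPM, and the highest astrocyte marker sum of the apoE4 libraries, 4670 CPM, whose part was not tested.

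E2f2 differed between apoE4 and apoE2, with a log2 fold change of 3.90 ± 0.64. It is in the family because of its level with apoE4, so this value is a description with no test.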

How the results depend on the processing

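Of the 54 fold changes of tested members, 7 were called or met the study's criterion, and 0 of these changed sign under an alternative. All 7 were of E2f2 or E2f7, by whose apoE4 levels the family was chosen, so nothing is read from their steady sign. Of the others 17 changed sign, all of 0.45 or less in size on the log2 scale, and 1 of them by a setting other than leaving out a library. E2f1 with apoE3, at 0.03, ranged from -0.13 to 0.22, and Rb1 with apoE4, at 0.23, from -0.01 to 0.38. Between apoE4 and control, E2f2 ranged from 3.45 to 3.64 over the settings and from 3.31 to 4 without a library in turn, and E2f7 from 2.72 to 3.21 without a library in turn. Counts of called members moved. In DESeq2 with the block E2f7 had no adjusted p between apoE4 and control, apoE2 or apoE3, so it could not be called there. Between apoE4 and control the 1 called member became 2 by DESeq2, 2 with the replicate block, 2 by DESeq2 with the block (E2f2 and E2f3), and 0 with the stricter filter, the methods' test or only the 2 groups compared, and 0 to 2 without a library in turn (2 without apoE4 replicate 2). Between apoE4 and apoE2 the 1 became 2 by DESeq2, 3 with the block, 2 by DESeq2 with the block, 0 with the stricter filter, the methods' test or only the 2 groups compared, and 0 to 2 without a library (0 without apoE2 replicate 1, 2 or 4 or apoE4 replicate 1, and 2 without apoE3 replicate 1 or apoE4 replicate 2). Between apoE4 and apoE3 the 0 became 1 by DESeq2, 2 with the block and 1 by DESeq2 with the block, and between apoE3 and control 1 with the block in edgeR and 1 in DESeq2. By the study's criterion the 0 members with apoE3 became 1 with the block (E2f7) and 0 to 2 without a library (E2f2 without control, apoE2 or apoE3 replicate 3, and E2f2 and E2f7 without apoE3 replicate 2), and the 2 with apoE4 became 0 with the stricter filter, which removes both genes, and 3 with no filter or without apoE2 replicate 1, apoE4 replicate 1 or apoE4 replicate 3, as E2f8 joined them. Of the G1/S genes, the 1 called with apoE4 became 0 with no filter, the stricter filter, the methods' test or only the 2 groups compared, 2 with the block, 3 by DESeq2 with the block, and 0 to 1 without a library (0 without control replicate 1, 2, 3 or 4, apoE2 replicate 1, apoE3 replicate 1 or apoE4 replicate 1, 3 or 4). The 0 with apoE2 became 1 by DESeq2 with the block, and the 0 with apoE3 became 1 with the block and 2 by DESeq2 with the block. Of the G2/M genes, the 0 with apoE2 became 1 by DESeq2, with the block and with both. The 0 with apoE3 became 1, 1 and 2, and the 0 with apoE4 became 1, 2 and 2 and 0 to 1 without a library (1 without apoE4 replicate 2). The cause of these moves was not tested beyond the filters. E2f7 and E2f8 had under 35 reads in any library, and the part of depth was not tested.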
